A study of Mus musculus with 15 samples.

Results

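Miz1 sites that Myc reached after its activation are the subject here: peaks of Miz1 in untreated fibroblasts that overlapped no Myc peak before activation but overlapped one 4 h after it. The rule took 396 of the 8310 Miz1 peaks of these cells (4.77%, 95% interval 4.33 to 5.24), and they are called reached sites. The count was 257 with equal numbers of Myc peaks at both times, 251 with Miz1 peaks at a p of 1e-05 or below and 62 with Myc 4 h peaks above the median fold, while the deposited lists hold 23617 Myc peaks at 4 h and 19995 at 0 min. With Myc required at all 5 later times it was 194. They are set against the 4417 Miz1 peaks (53.2%) that overlapped no Myc peak at either time, called Myc-free sites. The other 3497 Miz1 peaks (42.1%) already overlapped a Myc peak at 0 min, and 97.4% of those did so at 4 h too. An overlap of 1 bp or more counted, and of the 4813 Miz1 peaks without Myc at 0 min, 8.23% (7.48 to 9.04) were reached.

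Miz1, encoded by Zbtb17, is a zinc finger protein with a POZ domain that binds DNA and activates genes on its own. In complex with Myc it is known to repress some of its targets, among them genes of cell cycle inhibitors, while Myc with its partner Max binds E-boxes such as CACGTG and mostly activates. Which of its sites Miz1 shares with Myc, and when Myc arrives there, is therefore a question of interest for both proteins.

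The cells were 3T9 fibroblasts, a line from E13.5 mouse embryos whose c-myc alleles are floxed, infected in culture with MycER. MycER is Myc fused to a hormone-binding domain that 4-hydroxytamoxifen (OHT) activates. All fibroblast libraries share this genotype. Chromatin immunoprecipitation with sequencing (ChIP-seq) mapped Myc (antibody N262) and RNA polymerase II (RNAPII, antibody N20) before OHT (0 min) and after 10 min, 20 min, 30 min, 2 h and 4 h of 400 nM OHT. Miz1 (antibody 10E2) was mapped in the same line without OHT, and in B220-selected splenic B cells of wild-type C57BL/6 mice aged 6 to 8 weeks. Miz1 was not mapped after OHT, so the values say where Myc came to Miz1 sites and not whether Miz1 was still there. A Myc peak is not assigned here to the endogenous protein or to MycER, and the labels do not say whether the line is 1 clone. RNAPII promoter peaks at 0 min were present at 10 of 12 fibroblast marker genes, with Thy1 and Postn lacking one, and at 1 of 10 B cell markers, Ebf1.

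Each group held 1 library, so there is no replicate error and no p-value. Intervals are 95% Wilson intervals of a share, or Newcombe intervals of a difference of shares, and cover counting error over sites or genes only. The Myc library held 29034076 tags at 4 h and 33431447 at 0 min, so the longer, later list came from the smaller library. RNAPII libraries held 16268203 tags at 4 h and 15276996 at 0 min, and the fibroblast Miz1 library 10164509.

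The sequences below show what the strongest reached sites hold at their Miz1 summits (mm9, plus strand, up to 60 bases either side, stopping where an annotated UTR begins). In the first set, the 4 reached promoters of highest Miz1 signal, capitals mark ATCGA or its reverse complement TCGAT. They lie at chr11:84729900-84730020, chr7:71518982-71519091, chr4:115796298-115796418 and chr9:66823292-66823402.
Znhit3: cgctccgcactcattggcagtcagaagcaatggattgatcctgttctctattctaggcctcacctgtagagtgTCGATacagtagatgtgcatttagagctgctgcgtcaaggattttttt
Fan1: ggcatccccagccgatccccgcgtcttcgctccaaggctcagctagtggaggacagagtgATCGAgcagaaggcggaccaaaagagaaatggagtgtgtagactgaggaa
Rad54l: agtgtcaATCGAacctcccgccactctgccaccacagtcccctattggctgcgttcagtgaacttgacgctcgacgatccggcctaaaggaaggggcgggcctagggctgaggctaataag
Lactb: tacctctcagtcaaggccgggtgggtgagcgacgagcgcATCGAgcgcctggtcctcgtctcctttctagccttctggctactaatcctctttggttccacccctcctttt

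The second set holds, among reached sites away from promoters and clear of UTRs, the 2 of highest Miz1 pileup with a GA repeat and the 3 with TGACTCA in the bases shown, 1 site being in both. Both words are in capitals on either strand. The sites lie at chr11:94782419-94782539, chr6:73160652-73160772, chr15:71533602-71533722 and chr11:118199136-118199256, and are named for the nearest protein-coding start site. The site near BC100451 lies in an intron of that gene and of Timp2.
Near Col1a1: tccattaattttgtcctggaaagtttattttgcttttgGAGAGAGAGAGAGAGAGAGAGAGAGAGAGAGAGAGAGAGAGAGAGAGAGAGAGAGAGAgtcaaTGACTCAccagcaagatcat
Dnahc6 intron: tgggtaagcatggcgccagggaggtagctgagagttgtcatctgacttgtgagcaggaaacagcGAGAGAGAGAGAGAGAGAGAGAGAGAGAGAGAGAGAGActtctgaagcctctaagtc
Fam135b intron: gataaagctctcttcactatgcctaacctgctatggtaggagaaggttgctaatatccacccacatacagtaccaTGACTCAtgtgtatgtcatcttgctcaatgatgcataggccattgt
BC100451 intron: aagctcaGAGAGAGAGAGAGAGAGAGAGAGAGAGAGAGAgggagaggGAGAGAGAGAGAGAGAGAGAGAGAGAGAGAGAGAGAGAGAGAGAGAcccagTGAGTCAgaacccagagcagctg

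Shown for contrast are the reached site with CACGTG at the Miz1 summit whose Myc 4 h peak was highest, in an intron of Syde2 at chr3:145652792-145652912, and the strongest Myc-free site with TGCACCAA, an intergenic site at chr15:49472939-49473059 whose nearest start site is that of Csmd3. Capitals mark the named word alone.
Syde2 intron: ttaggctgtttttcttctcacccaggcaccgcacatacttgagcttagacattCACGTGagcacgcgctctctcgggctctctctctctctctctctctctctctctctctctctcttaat
Myc-free near Csmd3: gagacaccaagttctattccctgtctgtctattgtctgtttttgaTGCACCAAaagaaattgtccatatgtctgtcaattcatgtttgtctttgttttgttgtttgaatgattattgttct

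Reached sites carried Myc through most of the time course, in libraries that the rule did not use. A Myc peak lay over 70.5% of them after 10 min, while 20 min gave 79.8%, 30 min gave 63.9% and 2 h gave 85.6%. Myc-free sites had one in 2.74%, 3.87%, 1.70% and 5.23% at the same times. At all 4 of these times Myc was called at 194 reached sites (49.0%, 44.1 to 53.9) and at 20 Myc-free sites (0.453%). At none of them was it called at 21 reached sites (5.30%, 3.49 to 7.97), against 4083 Myc-free sites (92.4%). The share at 30 min was below those on either side, and the 30 min list was also shorter, with 22996 peaks, than the 20 min (25702) and 2 h (27388) lists. The part of list length in that lower share was not tested.

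**Figure D1:**
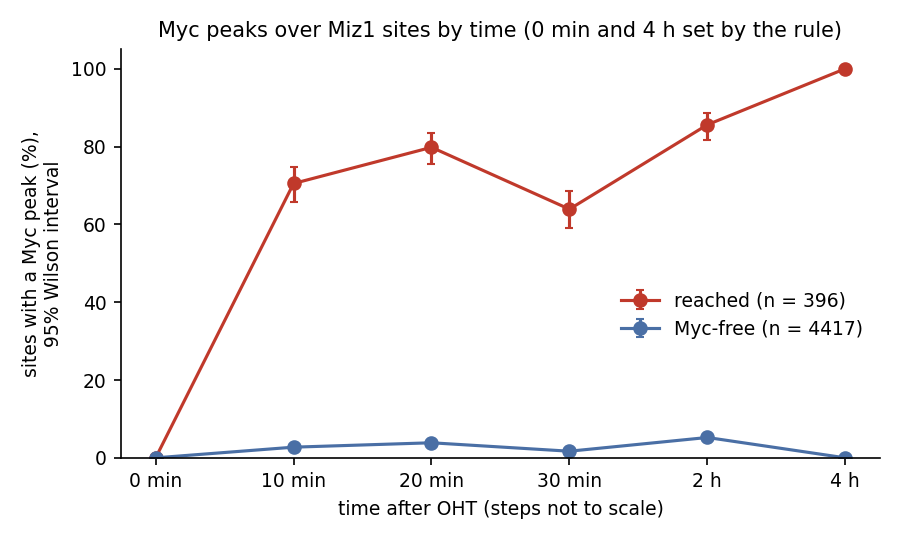
Share of Miz1 sites with a Myc peak (%, vertical) at each time after OHT (horizontal), for 396 reached sites in red and 4417 Myc-free sites in blue, with 95% Wilson intervals. The 0 min and 4 h points are set by the rule; at the times between, 63.9% to 85.6% of reached sites carried Myc, against 1.70% to 5.23% of Myc-free sites.

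Some reached sites lay beside Myc that was there from the start. A Myc 0 min peak lay within 1000 bp of 83 reached sites (21%, 17.2 to 25.2) and of 221 Myc-free sites (5.00%, 4.40 to 5.69). The median distance to the nearest one was 11194 bp for reached and 38378 bp for Myc-free sites. Of the 396 reached sites, 323 lay under a Myc 4 h peak that overlapped no 0 min peak at all. The other 73 (18.4%) lay under a 4 h peak that overlapped a 0 min peak elsewhere along its length, so that the covering peak was not a newly called one. The Miz1 summit itself lay inside the Myc 4 h peak at 369 sites (93.2%).

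Reached sites were mostly not promoters, but more often than Myc-free sites they were. Within 1000 bp of an annotated transcription start site (TSS) lay 74 reached sites (18.7%, 15.2 to 22.8) and 298 Myc-free sites (6.75%, 6.04 to 7.52). The difference was 11.9 points (8.32 to 16.1). Sites with Myc at 0 min were at promoters in 48.6% of cases, and all Miz1 peaks in 24.9%, more often than reached sites. Against protein-coding transcripts alone the shares were 17.4% for reached and 4.21% for Myc-free sites. Summits lay in introns at 49.2% of reached and 41.0% of Myc-free sites, and between genes at 48% and 55.4%. The median distance to a protein-coding TSS was 15804 bp for reached, 37020 bp for Myc-free and 2026 bp for sites with Myc at 0 min. Base composition around the summit also moved with the classes, with a median GC content of 49.3% at reached, 43.8% at Myc-free and 54.7% at sites with Myc at 0 min, and its part in the other differences was not tested.

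**Figure D2:**
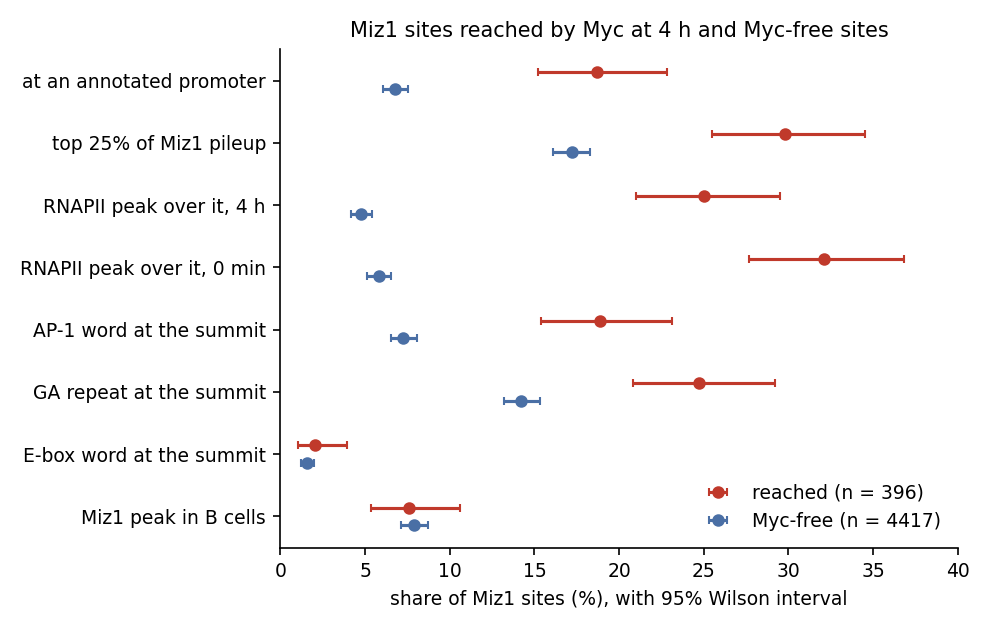
Share of Miz1 sites (%, horizontal) with each property, for 396 reached sites in red above 4417 Myc-free sites in blue, with 95% Wilson intervals. The intervals are apart for promoters, Miz1 pileup, RNAPII, the AP-1 word TGACTCA and the GA repeat, and overlap for the E-box word CACGTG (2.02% and 1.56%) and for Miz1 peaks in B cells (7.58% and 7.90%).

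By Miz1 signal, reached sites sat in the upper middle of the list. The pileup, the authors' count of Miz1 fragments stacked at a summit, had a median of 10 at reached sites (range 5 to 325) and of 8 at Myc-free sites (5 to 326). The median percentile in the whole list was 58.7 for reached and 33.3 for Myc-free sites, while sites with Myc at 0 min had 66.3. The top 25% of the list held 29.8% of reached and 17.2% of Myc-free sites, a difference of 12.6 points (8.15 to 17.4). Among Miz1 peaks with a p of 1e-05 or below, a cutoff that 63.4% of reached and 36.7% of Myc-free sites passed, the shares in that same top group were 46.2% for reached and 45.5% for Myc-free sites (difference 0.749 points, -5.78 to 7.38). With ranks drawn anew within that shorter list, the difference for its own top 25% was -6.57 points (-11.4 to -0.898), lower for reached sites. The direction of the rank difference therefore depended on the weaker peaks.

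The share of Myc-lacking Miz1 sites that were reached was highest in bin 8 of 10 bins of 831 peaks ordered by pileup, and lower on both sides. It was 2.72% in the weakest bin, 19.9% (16.0 to 24.4) in bin 8 and 9.48% (6.83 to 13.0) in the strongest. Ranked by fold enrichment over background, the same share was 3.53% in the weakest bin, 16.0% in bin 8, 16.1% in bin 9 and 13.1% in the strongest. The strongest 100 Miz1 peaks by pileup held 4 reached and 10 Myc-free sites, and 86 with Myc at 0 min. Pileup takes no account of local background: 24 Myc-free sites and 0 reached sites had a pileup above 21 with a fold below 3.

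**Figure D3:**
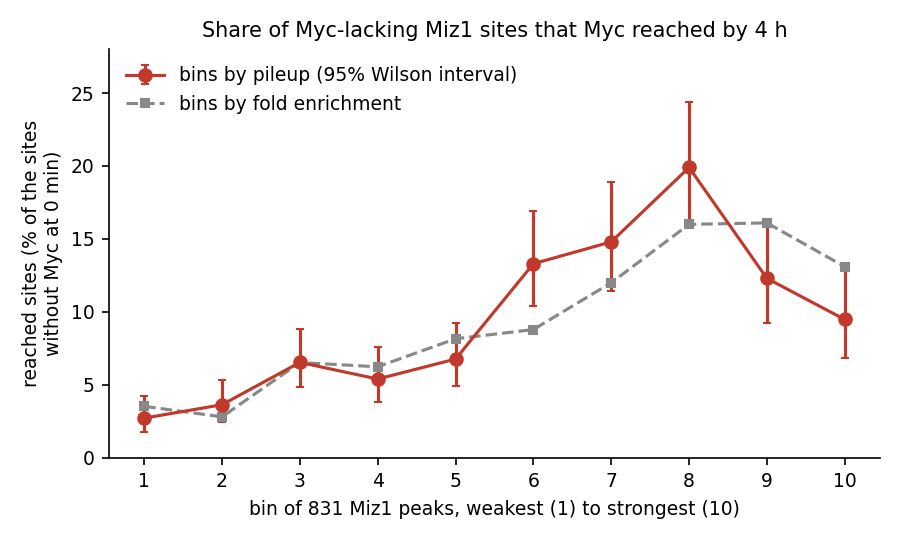
Reached sites as a share of the Miz1 sites without Myc at 0 min (%, vertical) in 10 bins of all 8310 Miz1 peaks from weakest to strongest (horizontal). Circles rank by pileup, with 95% Wilson intervals, and squares by fold enrichment; the pileup curve is highest in bin 8 at 19.9% and stands at 9.48% in the strongest.

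Short DNA words also differed between the classes. Each word was counted within 100 bp of the Miz1 summit on both strands, and in windows of the same width centred 1000 bp to either side. TGACTCA, the site that AP-1 factors such as Fos and Jun bind, was present at 75 reached sites (18.9%, 15.4 to 23.1) and at 320 Myc-free sites (7.24%, 6.52 to 8.05). In the flanks it was present in 3.41% and 3.07%. All Miz1 peaks held it in 9.95%. The difference was 11.7 points (8.05 to 15.9). Away from promoters the shares were 22.7% for reached and 7.53% for Myc-free sites. At promoters they were 2.70% and 3.36%. Sites away from promoters with Myc at 0 min held TGACTCA in 19.5%.

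A run of GA repeats, counted as GAGAGAGA or TCTCTCTC, was present at 98 reached sites (24.7%, 20.8 to 29.2) and 627 Myc-free sites (14.2%, 13.2 to 15.3), against 3.54% and 3.98% in the flanks. All Miz1 peaks held one in 14.4%. Among the sites with a Miz1 p of 1e-05 or below the shares were 29.9% for reached and 24.2% for Myc-free sites, and the difference of 5.64 points (-0.105 to 11.9) was within counting error. GA repeats and TGACTCA were found together at 11 reached sites, alone at 87 and 64, and both were missing at 234. CCCTCCCC was present at 19.4% of reached and 10.0% of Myc-free sites, at 16.0% of all Miz1 peaks and at 4.29% and 2.49% of the flanks. It was also present at 23.3% of the sites with Myc at 0 min. At promoters CCCTCCCC was present at 20.3% of reached and 16.1% of Myc-free sites, a difference within counting error (4.16 points, -4.71 to 15.3). Away from promoters the shares were 19.3% and 9.57% (difference 9.69 points, 5.65 to 14.4).

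The E-box CACGTG was no more frequent at reached summits than in their flanks. It was present at 8 reached sites (2.02%, 1.03 to 3.94) and 69 Myc-free sites (1.56%), against 2.27% and 2.25% in their flanks, and at 3.01% of all Miz1 peaks. The difference was 0.458 points (-0.616 to 2.40). Sites with Myc at 0 min held it in 4.95%, against 2.72% in their flanks. CACGCG was present at 0.758% of reached and 0.521% of Myc-free sites. At the summit of the Myc peak in place of the Miz1 summit, CACGTG was found in 19 of the 388 Myc 4 h peaks that covered reached sites (4.90%, 3.16 to 7.52).

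ATCGA, the word marked in the sequences of Znhit3, Fan1, Rad54l and Lactb, was frequent at the strongest Miz1 peaks. It was present at 62.5% (50.3 to 73.3) of the 64 Miz1 peaks with a fold of 100 or more, and at 5.34% of all Miz1 peaks. Reached sites held it in 4.55% and Myc-free sites in 3.80%, against 3.66% and 4.06% in the flanks. The palindrome ATCGAT was present at 1 reached and 40 Myc-free sites (0.253% and 0.906%). TGCACCAA was less frequent at reached than at Myc-free sites. Sites with Myc at 0 min held it still less often, in 0.372%, and all Miz1 peaks held it in 2.45%. It was present at 4 reached sites (1.01%) and 187 Myc-free sites (4.23%), and at 0 of 36 reached (upper bound 9.64%) and 69 of 351 Myc-free sites (19.7%) with a pileup of 20 or more. Whether sites with this word lie in repeats was not analysed here. The word ATCGA, the AP-1 word TGACTCA, the word CCCTCCCC and the word TGCACCAA were chosen after frequent words at the summits had been seen, so their shares are descriptions.

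Between the classes, the share with Miz1 in B cells differed by less than counting error. A B cell Miz1 peak overlapped 30 reached sites (7.58%) and 349 Myc-free sites (7.90%), a difference of -0.326 points (-2.69 to 2.80). All Miz1 peaks had a B cell peak in 10.7% and sites with Myc at 0 min in 14.6%. At promoters the shares were 20.3% for reached and 13.1% for Myc-free sites, and elsewhere 4.66% and 7.53%, with both differences within counting error. Among Miz1 peaks with a p of 1e-05 or below, 10.4% of reached and 16.8% of Myc-free sites were shared with B cells, 6.42 points fewer (-10.1 to -1.70).

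The Myc 4 h peaks over reached sites were low in their list. The Myc 4 h peak over a reached site had a median fold of 8.23 (range 3.33 to 50.1), at the percentile 23.8 of its list. Over sites with Myc at 0 min the median was 18, at the percentile 69.7. Myc 4 h peaks that overlapped no 0 min peak, called new peaks, had a median fold of 7.64 where they met Miz1 and of 7.61 where they did not. Miz1 was less common at new peaks: 316 of 4764 overlapped a Miz1 peak (6.63%), against 3109 of 18853 Myc 4 h peaks with Myc at 0 min (16.5%), a difference of -9.86 points (-10.7 to -8.95). The Miz1 and Myc summits were a median of 190 bp apart at reached sites and 270 bp at sites with Myc at 0 min.

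TGACTCA lay at the Myc summit of 29.1% of the new Myc 4 h peaks with Miz1 and of 29.3% of those without Miz1 (difference -0.158 points, -5.08 to 5.24), against 3.48% and 3.65% in their flanks. CACGTG was present at 3.16% of the new peaks with Miz1 and 8.97% of those without (difference -5.81 points, -7.49 to -3.12), with 2.06% and 2.51% in the flanks. GA repeats stood at 6.33% with Miz1 and 2.41% without. New Myc peaks with and without Miz1 were at promoters in 22.2% and 19.6%, and this difference was within counting error (2.55 points, -1.85 to 7.58).

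**Figure D4:**
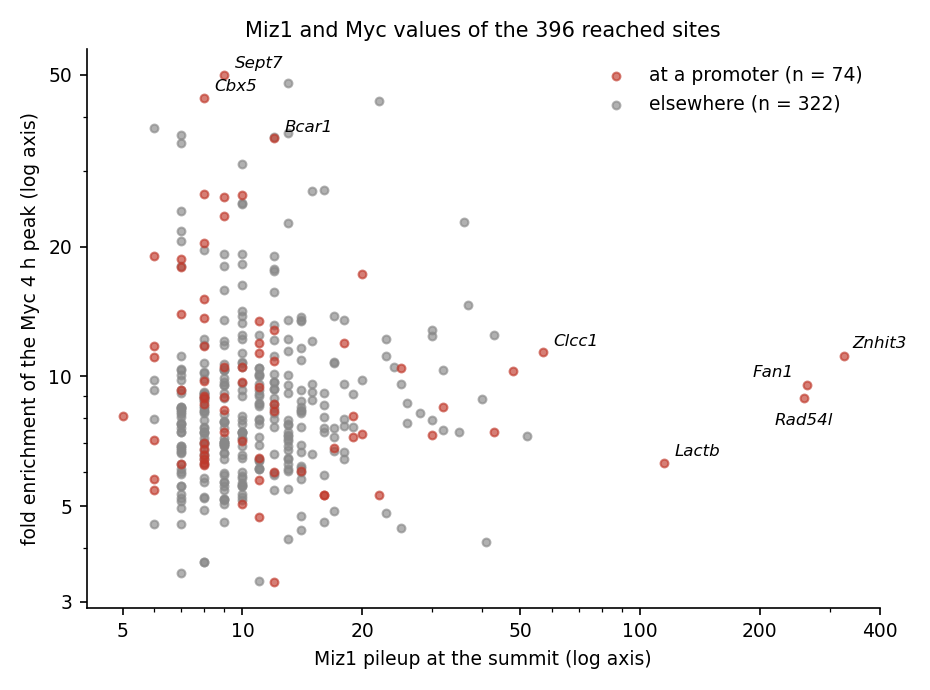
Fold enrichment of the Myc 4 h peak (vertical, log axis) against Miz1 pileup (horizontal, log axis) for each of the 396 reached sites, in red for the 74 at promoters and in grey for the 322 elsewhere. Znhit3, Fan1, Rad54l and Lactb stand alone in Miz1 pileup (115 to 325) with Myc folds of 6.31 to 11.15, and Sept7, Cbx5 and Bcar1 have the highest Myc folds of named promoters with pileups of 9, 8 and 12.

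At protein-coding promoters, reached Miz1 peaks fell to 72 of 22208 genes (0.324%). Myc-free peaks, with no Miz1 peak of another class at any promoter of the gene, fell to 175 (0.788%). A gene with a reached peak counted as reached whatever other Miz1 peaks its promoters held. The 72 genes shared 69 Miz1 peaks. Their pileups ran from 5 to 325 with a median of 11, and Myc 4 h folds from 3.33 to 50.06 with a median of 8.93. Myc was called at all 5 later times at 41 of the 72, where 49.0% of all reached sites had it. A B cell Miz1 peak was present at 16 of the 72, against 13.1% of Myc-free promoter sites and 10.7% of all Miz1 peaks. CACGTG was at the Miz1 summit of 0 of the 72, and was rare elsewhere too, at 1.01% of Myc-free promoter sites and 3.01% of all Miz1 peaks.

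The 5 reached genes of highest Miz1 pileup were Znhit3, Fan1, Rad54l, Lactb and Clcc1. Znhit3 encodes a zinc finger HIT protein of small nucleolar ribonucleoprotein assembly. Its Miz1 peak at chr11:84729551-84730438 was the 8th of the whole list by pileup (325, 242.07-fold), with its summit between annotated transcripts and 92 bp from the TSS. Myc was not called at 0 min and was called from 10 min on, at 11.15-fold at 4 h, and the nearest Myc 0 min peak was 1841 bp away. Fan1, a nuclease of DNA crosslink repair, had a Miz1 pileup of 262 at chr7:71518615-71519505 and a Myc 4 h peak of 9.53-fold. Rad54l, a motor protein of homologous recombination, had 258 at chr4:115795827-115796830 and Myc at 8.92-fold. Lactb, which encodes a filament-forming protein of mitochondria, had 115 at chr9:66823092-66823733 and Myc at 6.31-fold, and Clcc1, a chloride channel gene of the endoplasmic reticulum, had 57 at chr3:108456403-108457357 and Myc at 11.40-fold.

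These 5 genes shared several features. Each had its Miz1 summit within 92 bp of the TSS, Myc at all 5 later times, a Miz1 peak in B cells and RNAPII at all 6 times. The Miz1 and Myc 4 h summits were 162 bp apart at Znhit3, 118 bp at Fan1, 69 bp at Rad54l, 139 bp at Lactb and 70 bp at Clcc1. RNAPII folds at 0, 10, 20 and 30 min, 2 h and 4 h were 20.18, 7.74, 15.65, 19.33, 15.44 and 13.85 at Znhit3. At Rad54l they were 12.01, 10.42, 8.06, 13.14, 9.83 and 19.88. These folds belong to separate lists, so they show that a peak was called each time and not how much RNAPII changed.

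The other 10 of the 15 of highest pileup had values of 20 to 48. Col4a5 and Col4a6, paired genes for collagen IV chains of basement membranes, shared a peak of pileup 48 at chrX:137909365-137910154 with Myc at 10.31-fold. Arid5b, a DNA-binding protein of development, had 43, under a 4 h Myc peak that also overlapped a 0 min peak 21 bp from the Miz1 peak. Armcx5 and Gprasp1, neighbours on chromosome X, shared a peak of 32. Zmiz2, a PIAS-like coactivator, had 30, Eps15, an adaptor of endocytosis, 25, and Foxp1, a forkhead factor, 22, with Myc called at 4 h alone. Heca and Grina both had 20. A B cell Miz1 peak was present at 11 of these 15 genes, which were picked by pileup. In the strongest of the 10 pileup bins, 51.5% of reached and 29.8% of Myc-free sites had one, against 10.7% of all Miz1 peaks.

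The 8 reached promoters with the highest Myc folds had low Miz1 pileups. Sept7, a septin of the cytoskeleton, had a Myc 4 h peak of 50.06-fold, Cbx5, the heterochromatin protein HP1 alpha, 44.29, Bcar1, an adaptor of adhesion signalling, 35.73, and Rfx7, a winged-helix factor, 26.44. 1700029F09Rik had 26.28, Tm7sf3 26.02, Pdia6, a disulfide isomerase, 23.6 and 2900010M23Rik 20.34. Their pileups were 8 to 12, and the Myc 4 h peak of each also overlapped a 0 min peak. Their Miz1 peaks lay between 23 bp (Pdia6) and 836 bp (Bcar1) outside that 0 min peak. Myc was thus called nearby before OHT.

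Chromosome X held 10 of the 72 genes (13.9%, 7.72 to 23.7), 4 of the 175 Myc-free genes (2.29%, 0.892 to 5.73) and 4.17% of all protein-coding genes. They include the 4 named above, which share 2 Miz1 peaks, and Stag2 and Gpc4. Of all reached sites 3.54% were on X, and of all Myc-free sites 3.55%, a difference seen in genes and not in sites. This count and these genes were singled out after their values were seen.

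Away from promoters, the strongest reached site lay 15059 bp from the TSS of Col1a1, a main collagen gene of fibroblasts, at chr11:94782141-94782733 (pileup 52, Myc 7.28-fold). It carries the long GA run and the TGACTCA shown above, and no RNAPII peak covered it at 4 h or 0 min. The next were in an intron of Dnahc6 (43, Myc 12.5-fold), 25101 bp from Syf2 (41, 4.13-fold), in an intron of Fam135b (40, 8.87-fold), 16422 bp from Bcl9l (37, 14.67-fold) and in an intron of Acad10 (36, 22.76-fold). Of these 6 sites only the one near Bcl9l had RNAPII over it at 4 h and 0 min.

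In 14 lists of pathways and markers, 0 of 321 genes had a reached promoter peak (upper bound 1.18%) and 0 a Myc-free one, where the shares of all genes were 0.324% and 0.788%. The count of reached genes was thus within counting error of the share of all genes. Where the listed genes had a Miz1 promoter peak, a Myc 0 min peak overlapped it, as it did at 1586 of all 22208 genes (7.14%). The counts were 6 of 36 genes of vesicle traffic and autophagy, 3 of 7 of CDK inhibitors, 5 of 20 of the circadian clock, 6 of 25 of integrins and adhesion, 4 of 14 of the Myc and Max network, 2 of 31 of ribosome biogenesis, 7 of 34 of ribosomal proteins and 8 of 25 of the cell cycle. They were 2 of 25 for mitochondria, 8 of 27 for TGF-beta, BMP and Wnt signalling, 4 of 26 for developmental factors, 1 of 20 for fibroblast matrix, 0 of 16 for B cell markers and 1 of 15 for neuron markers. Ambra1, a regulator of autophagy, had a Miz1 pileup of 318 and Vamp4, a SNARE of vesicle fusion, 176. The CDK inhibitor genes Cdkn1a and Cdkn2b had Miz1 pileups of 6 and 9, and the clock repressor Nr1d1 had 8, all with Myc at 0 min. Cdkn1c, Arntl, Clock and Zbtb17 itself had no Miz1 promoter peak in fibroblasts.

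Most reached genes had RNAPII at both times. A peak within 1000 bp of any protein-coding TSS of the gene counted, also at a promoter other than that with the Miz1 peak. At 4 h 63 of the 72 genes had a narrow RNAPII promoter peak (87.5%, 77.9 to 93.3), and at 0 min 62 of them did (86.1%, 76.3 to 92.3). Over all protein-coding genes these shares were 46.8% and 47.5%. At the 1586 genes whose Miz1 promoter peak had Myc at 0 min they were higher, 96.6% at 4 h and 97.1% at 0 min. Of the 175 Myc-free genes 75 had a peak at 4 h (42.9%, 35.8 to 50.3) and 92 at 0 min (52.6%, 45.2 to 59.8). The name Myc-free describes their Miz1 peaks and not the whole gene. A Myc 4 h peak stood at a promoter of 63 of these 175 genes (36%), against 46.7% of all protein-coding genes. Reached minus Myc-free was 44.6 points (32.5 to 53.8) at 4 h and 33.5 points (21.3 to 43.2) at 0 min. In the broad RNAPII lists the shares were 69.4% of reached and 36.6% of Myc-free genes at 4 h, and 73.6% and 38.9% at 0 min.

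**Figure D5:**
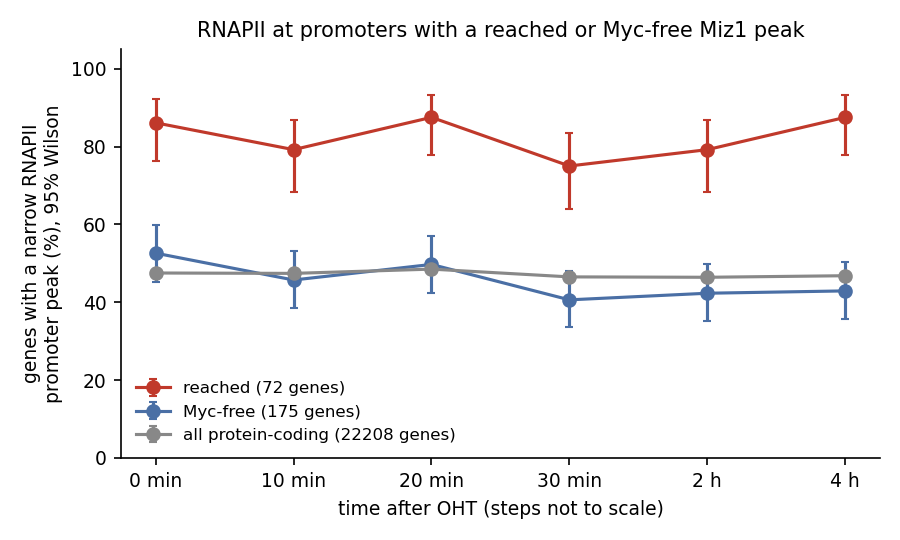
Share of genes with a narrow RNAPII promoter peak (%, vertical) at 6 times after OHT (horizontal), for 72 reached genes in red, 175 Myc-free genes in blue and all 22208 protein-coding genes in grey, with 95% Wilson intervals. Reached genes lie between 75% and 87.5% and Myc-free genes between 40.6% and 52.6%, near the 46.4% to 48.5% of all genes. RNAPII at any protein-coding TSS of a gene counted, and 63 of the Myc-free genes had a Myc 4 h promoter peak.

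The difference was smaller at genes with a Myc 0 min peak at any of their promoters. A Myc 0 min peak stood within 1000 bp of any protein-coding TSS of the gene at 30 of the 72 reached and 55 of the 175 Myc-free genes. It did not overlap the Miz1 peak of the class, and it could lie at another promoter of the gene. Among genes with such a peak, RNAPII was called at 4 h at 100% of reached and 83.6% of Myc-free genes, a difference of 16.4 points (2.75 to 28.3). At 0 min the shares were 93.3% of reached and 90.9% of Myc-free genes, a difference of 2.42 points (-13.1 to 14). Among genes without it, RNAPII was called at 4 h at 33 of 42 reached (78.6%) and 29 of 120 Myc-free genes (24.2%), and at 0 min at 34 (81.0%) and 42 (35%). There the difference was 54.4 points (37.6 to 66.3) at 4 h and 46.0 points (29.2 to 58.0) at 0 min. The contrast between genes with and without such a peak was not itself tested.

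Few genes changed their RNAPII call between the 2 times. Of the 72 reached genes 60 had a narrow peak at both and 7 at neither. A peak at 4 h alone was called at 3 genes (4.17%, 1.43 to 11.5), against 1.07% of all genes, and at 0 min alone at 2 (2.78%, 0.765 to 9.57), against 1.75%. Heca (10.16-fold at 4 h), Fst, the activin antagonist follistatin (11.13-fold), and Ccdc141 (8.39-fold) were the 3 at 4 h alone. Heca had RNAPII peaks at 10 min, 20 min and 2 h too, and Ccdc141 at 20 min. Rassf8 (7.0-fold at 0 min) and Zfp763 (11.62-fold) were the 2 with a peak at 0 min and not at 4 h, and Zfp763 had one at 2 h too (7.48-fold). In the broad lists 3 genes were called at 4 h alone and 6 at 0 min alone, and 0 of them were the same as in the narrow lists.

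Among the 7 genes with neither call were Syt12, Pkp2 and Calml4, named after their values were seen. Among Myc-free genes 73 had RNAPII at both times, 2 at 4 h alone (1.14%), 19 at 0 min alone (10.9%, 7.06 to 16.3) and 81 at neither. In the broad lists the Myc-free genes had 5 at 4 h alone and 9 at 0 min alone.

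Over the Miz1 peak itself, RNAPII was called at 25% of reached and 4.75% of Myc-free sites at 4 h, and at 32.1% and 5.80% at 0 min. Over all Miz1 peaks these shares were 32.3% at 4 h and 35.5% at 0 min. At sites with Myc at 0 min they were 67.9% and 73.4%. At promoters the shares were 77.0% of reached and 14.8% of Myc-free sites at 4 h, and 75.7% and 24.8% at 0 min. Away from promoters they were 13.0% of 322 reached and 4.03% of 4119 Myc-free sites at 4 h, and 22.0% and 4.42% at 0 min. Sites there with Myc at 0 min had RNAPII in 43.8% at 4 h and 53.3% at 0 min. Of the 322 reached sites away from promoters, 39 had RNAPII at both times, 3 at 4 h alone and 32 at 0 min alone. The counts over the time course were 71, 74, 79, 60, 57 and 42 at 0, 10, 20 and 30 min, 2 h and 4 h, while the RNAPII libraries held 15276996, 19999678, 36396286, 16274905, 19859793 and 16268203 tags. The part of depth in these counts was not tested.

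Of the 1796 sites away from promoters with Myc at 0 min, 50 had RNAPII at 4 h alone and 220 at 0 min alone. Of the 4119 Myc-free sites there, 40 and 56 did. In all 3 classes more such sites had a narrow RNAPII peak at 0 min alone than at 4 h alone. In the broad lists 18 of the 322 reached sites had RNAPII at 4 h and 20 at 0 min.

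The Myc-free promoters of highest Miz1 pileup included several with little enrichment over background. Gm10801 (pileup 326, 1.51-fold), Gm10800 (283, 1.7-fold), Gm10722 (193, 1.76-fold) and Gm10720 (66, 1.54-fold) had high pileups with folds below 2. The histocompatibility genes H2-K1 (72) and H2-Q4 (50) had folds of 4.76 and 3.97. Fkbpl, an immunophilin-like gene, had 142 at 101.41-fold with a Miz1 peak in B cells, a narrow RNAPII peak at 0 min (12.11-fold) and none at 4 h, where the broad list called one (10.54-fold). Inpp5f, a phosphoinositide phosphatase gene, had 52 at 16.51-fold with RNAPII at all 6 times.

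The class rests on called peaks, and its edges were close. The weakest Myc 4 h peaks over reached sites had folds of 3.33 (at Pold4, a DNA polymerase delta subunit), 3.36 (near Micalcl) and 3.5 (near Katnal1). The smallest overlaps were 4, 7 and 9 bp. On the other side, the nearest Myc-free sites were 1, 10 and 12 bp from a Myc 4 h peak, and 149 Myc-free sites had one within 500 bp.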

How the data were processed

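The data are peak lists of single ChIP-seq libraries. The submitters' processing notes name BWA (version 0.6.2-r126) and the mouse build mm9. Myc and narrow RNAPII peaks were called with MACS 1.4.2 at a p of 1e-08, and broad RNAPII and Miz1 peaks with MACS 2.0.9 at 1e-08, 1e-02 (fibroblasts) and 1e-05 (B cells), each library against a control and keeping 1 tag (MACS 1.4.2) or 2 tags (MACS 2.0.9) per position, per the file headers. Control tags were 1.59 times the Miz1 fibroblast tags. In these deposited lists tags are raw counts, significance is a score of -10 log10 p or a −log10 p and q, the false discovery rate is a percent, fold enrichment is a ratio to local background, and pileup is the signal at the summit. These values are the authors' own and were used within a list only.

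Peaks were compared by position in Python 3.11.15 with pandas 2.3.3 and pysam 0.24.0, on GENCODE vM1 and NCBIM37, the assembly that mm9 is made of; 2 peaks of all lists ended past their chromosome's end. A gene was reached where a reached Miz1 peak lay within 1000 bp of a protein-coding TSS. RNAPII and Myc promoter peaks of a gene were taken at any of its protein-coding TSSs. Overlaps, distances and Wilson and Newcombe intervals were tested on simulated data or known examples. The members, gene lists and tests were chosen with earlier results of these data known. Genes were named by a rule: the 15 reached genes of highest Miz1 pileup, the 8 of highest Myc 4 h fold, up to 6 each with a narrow RNAPII peak at 4 h alone or 0 min alone, the 8 Myc-free genes of highest pileup, the 6 strongest reached sites elsewhere and 9 genes always shown. Alternatives changed the overlap, thresholds, windows, times and lists.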

Additional observations from a re-analysis of the deposited data

How the results depend on the processing

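Of 95 recomputed values, 77 stayed close to those reported, 17 moved and 1 turned. A difference was close inside the reported 95% interval, and a count within a set ratio of the reported count. The 77 include the values of the false discovery rate setting, which removed no peak and so could not differ. The promoter difference (8.03 to 19.9 points) and the RNAPII differences (32.9 to 55.2 at 4 h, 29.4 to 48.2 at 0 min) kept their sign throughout, and the CACGTG difference stayed between 0.263 and 1.65 points.

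With Miz1 peaks at a p of 1e-05 or below, 251 sites and 46 genes were reached, the promoter difference was 8.03 points, the B cell difference -6.42, and the difference for the top 25% by pileup, ranked in the shorter list, -6.57. With Myc 4 h peaks above the median fold these were 62 sites, 15 genes, 19.9 points for promoters and 3.46 for B cells. With no Myc 0 min peak within 1000 bp 47 genes were reached, with equal numbers of Myc peaks 257 sites, and with a 500 bp promoter window 46 genes. A 2000 bp window gave a promoter difference of 17.7 points. With Myc at all 5 later times against none at 6 times, 194 sites and 41 genes were reached, with differences of 17.9 points (top 25% by pileup), 55.2 (RNAPII at 4 h) and 48.2 (RNAPII at 0 min). Except for the wider window, these settings admit fewer sites or genes by construction, and the causes of the moved differences were not tested. Leaving out Myc peaks that also overlapped a 0 min peak, chosen after seeing the data, left 323 sites, 50 genes and a promoter difference of 9.04 points. Without the 12 Miz1 peaks off the chromosomes of the Myc lists, also chosen then, the count of reached sites was the same. All Myc peaks had passed a false discovery rate of 5%, so that alternative removed none.

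No paired analysis was possible because each group held 1 library. Peak calls depend on depth, and a site without a call is not shown to lack the protein.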

Other observations

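Some weaker reached promoters belonged to signalling genes, named here after their values were seen. They included the receptor tyrosine kinase genes Ddr1 (Miz1 pileup 19, Myc 7.25-fold at 4 h) and Axl (10, 10.53-fold), the Src-inhibiting kinase gene Csk (18, 11.98-fold), the Hippo kinase gene Lats2 (8, 13.63-fold) and the adaptor gene Nck2 (6, 11.76-fold). All 5 had RNAPII at 0 min and at 4 h, as did most reached genes (86.1% and 87.5%). At 4 h the folds were 26.13 for Ddr1, 33.78 for Axl, 31.93 for Csk, 34.01 for Lats2 and 15.0 for Nck2. At 0 min they were 17.66, 30.27, 26.46, 50.45 and 16.81 in the same order, in a separate list. A Myc 0 min peak stood in a promoter window of each of the 5 genes. The homeobox genes Meis1 and Shox2 were also reached, both with a Miz1 pileup of 16 and a Myc 4 h peak of 5.31-fold. A Myc 0 min peak stood in a promoter window of each. The nearest lay 595 bp from the Miz1 peak at Meis1 and 32 bp at Shox2. At Shox2 the Myc 4 h peak also overlapped a 0 min peak. No enrichment of such genes was tested.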
